A study of Mus musculus with 6 samples.

Results

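The transcripts of the mitochondrial genome were examined in mouse group 3 innate lymphoid cells (ILC3s), lymphocytes of mucosal tissue that lack antigen receptors and release interleukin 22. The members were the rows of the deposited count table whose identifier maps to a symbol that begins with mt-, 37 of 55401 genes. They comprise 13 protein genes, 2 ribosomal RNA (rRNA) genes and 22 transfer RNA (tRNA) genes, all on chromosome M. The labels give wild-type as the genotype, the lamina propria of the small intestine as the source, and pretreatment with PEox for 3 libraries and with vehicle for 3. The protocol text speaks of pups. PEox is left unexplained by the labels, and in ferroptosis research the abbreviation usually means oxidised phosphatidylethanolamine. The sources used here do not give the dose, the exposure time, the make-up of the vehicle or whether cells of several animals were pooled. They also do not say whether each library had its own animal, and the p-values below therefore rest on a spread between libraries that may be technical.

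Mitochondria keep a small circular genome of their own, which is transcribed from both strands into long precursors. The tRNAs lie between most of the longer genes, and cutting them out releases the mRNAs and rRNAs. All of its proteins are membrane subunits of respiratory complexes I, III, IV and V, to which the nucleus adds many more subunits. Its rRNAs and tRNAs serve the mitochondrial ribosome, while the polymerase, the processing enzymes and the ribosomal proteins are encoded in the nucleus.

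Libraries held 56252806 to 57532484 counts with PEox and 59524577 to 66849230 with vehicle. The protocol text names sorted epithelial cells, whereas the cell type label names ILC3s. The 10 ILC3 markers used, among them Il7r and Il23r, were all detected and summed to 5867 to 5928 CPM (counts scaled to library depth with TMM factors) in PEox and 11406 to 11635 in vehicle libraries. They did not move as a block: 5 were lower, 2 higher and 3 not called in edgeR. Most of the gap in the sum lay in Il22, with 2513 ± 59.4 CPM in PEox and 6724 ± 63.5 in vehicle (SD, n = 3 each), and in Id2, with 1684 ± 50.1 in PEox and 3004 ± 159 in vehicle. Il7r (-0.17) and Il23r (-0.08) did not pass, and Kit and Tcf7 rose by 0.91 and 0.66 on the log2 scale. The 8 epithelial markers, among them Epcam, summed to 74.4 to 75.1 CPM in PEox and 106.1 to 119.6 in vehicle. Of the 7 tested in edgeR, 3 were lower and 4 not called, with log2 fold changes of -1.17 to 0.51.

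Some members share bases with each other or with copies of themselves in the nuclear genome, which bears on the counts of those members. In the GENCODE vM21 transcript set (GRCm38), mt-Atp8 and mt-Atp6, the adjoining genes of subunits of ATP synthase, share 43 bases, printed in capitals.
mt-Atp8 end: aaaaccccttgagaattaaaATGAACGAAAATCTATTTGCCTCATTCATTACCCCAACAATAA
mt-Atp6 start: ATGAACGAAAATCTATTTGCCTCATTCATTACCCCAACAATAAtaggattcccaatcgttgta
The genes mt-Nd4l and mt-Nd4 of complex I share 7 bases in the same way, and mt-Nd5 shares 14 with mt-Nd6 on the opposite strand. The tRNA gene mt-Ts1 lies on the strand opposite to mt-Co1, with 3 bases in common, in capitals in the following stretch, which reads from the end of mt-Co1 into the complement of mt-Ts1.
mt-Co1 end and mt-Ts1 complement: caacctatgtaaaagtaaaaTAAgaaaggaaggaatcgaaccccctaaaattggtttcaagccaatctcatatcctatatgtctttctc
How the counter treated strand is not known from the sources used here, and reads of genes on opposite strands cannot be told apart where they overlap.

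Some pseudogenes of the nuclear genome held as many counts as the members they match. A search of the transcript set (at least 95% identity over at least 100 bases) found 11 nuclear copies, of which 7 lie on chromosome 1, each matching a different protein gene. Of these, 5 matched the member at every aligned base: Gm10925 (mt-Atp6, 678 bases), Gm28661 (mt-Co2, 681), Gm28437 (mt-Co3, 783), Gm10222 (mt-Nd4l, 294) and Gm28439 (876 of the 1378 bases of mt-Nd4). The copy of mt-Nd3, Gm28438, differs from it in 345 compared bases by T3C alone, counted from the first base of mt-Nd3 and capitalised here in the first 28 bases of each.
mt-Nd3: atTaacctgtacactgttatcttcatta
Gm28438: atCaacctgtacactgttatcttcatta
The last of the 7, Gm29216, matches 483 of the 1545 bases of mt-Co1 at 99.8% identity.

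The Gm10925 pseudogene held 55538, 53121 and 55508 counts in PEox libraries 1 to 3, where mt-Atp6 held 53666, 51232 and 53524. In vehicle libraries 1 to 3 Gm10925 held 124801, 118386 and 133865 counts, where mt-Atp6 held 121045, 114305 and 129330. For the 4 copies that match nearly a whole member without a difference, the ratio of the copy's count to the member's lay between 1.01 and 1.05 in every library of both groups. For Gm28438, with its single difference, it lay between 0.568 and 0.696. The 4 copies on chromosomes 2 and 13, at 95.2% to 97.6% identity, held at most 0.00772 of the member's count. Counts of the chromosome 1 copies amounted to 31.9% to 32.4% of the counts of all 13 protein genes in PEox libraries and to 38.4% to 41.2% in vehicle libraries. Whether reads were divided between gene and copy or counted for both cannot be read from the table, so the levels of these 7 members are uncertain. The search could not find copies outside the annotated transcripts, or of genes shorter than 100 bases such as the tRNA genes. Both mt-Atp8 and mt-Ts1 lie between members with a chromosome 1 copy, as do the tRNA genes mt-Td, mt-Tk, mt-Tg and mt-Tr. The search found no annotated copy of mt-Atp8. Whether it has a copy outside the annotated transcripts, or these tRNA genes have any, was not tested.

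**Figure D1:**
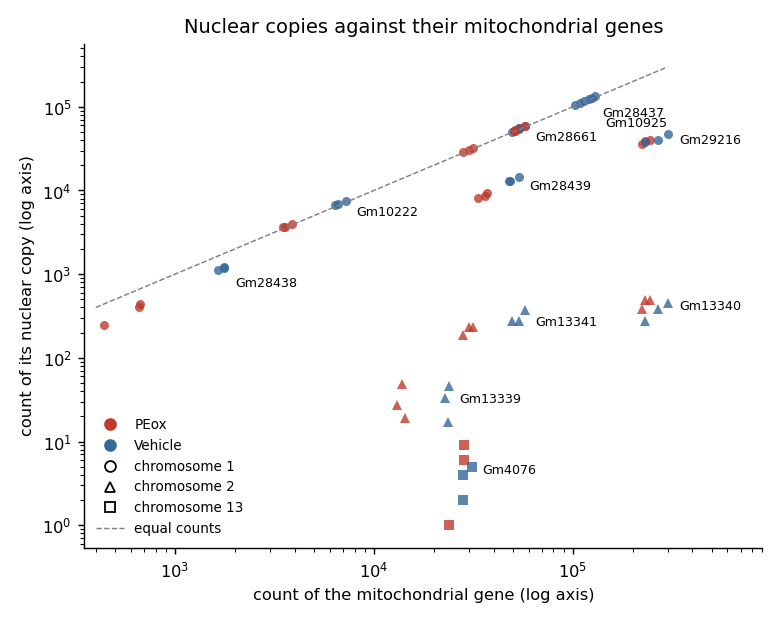
Count of each nuclear copy (vertical, log axis) against the count of its mitochondrial gene (horizontal, log axis) in the 3 PEox and 3 vehicle libraries, with chromosomes as symbols and equal counts as a dashed line. Gm10925, Gm28661, Gm28437 and Gm10222 lie on the line at ratios of 1.01 to 1.05 in both groups, and the copies on chromosomes 2 and 13 lie far below it.

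Most mitochondrial mRNAs and both rRNAs were lower in PEox-treated ILC3s. Of the 13 protein genes 11 fell, 0 rose and 2, mt-Co1 and mt-Nd5, did not pass the edgeR quasi-likelihood test at an adjusted p under 0.05. Both rRNA genes fell. Of the 22 tRNA genes 18 had enough counts to be tested and 2 of them fell. No member rose, and the count of members higher was 0 at an unadjusted p under 0.05, and 0 with DESeq2 and with limma-voom. Over all 18253 genes tested 37.1% were called, 18.8% as lower and 18.3% as higher. The CPM values of the groups did not overlap for the 11 protein genes called, with PEox lower, against 26.5% of all tested genes not overlapping in that direction and 50.6% in either. The median log2 fold change of the 13 protein genes was -0.80 and that of all tested genes 0.00. Scaling by library size alone moved these medians to -0.66 and 0.14, with 10 protein genes lower.

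In bulk RNA, fewer cells of a type and less RNA per cell cannot be told apart. Markers of other cells moved with the groups. Erythroid markers, all 7 detected, summed to 5121 to 5808 CPM in PEox and 2754 to 2802 in vehicle libraries. Of these 7, 5 were higher and 2 not called. No marker of any list was at 0 in all libraries, and Cd8a was at 0 in the 3 PEox libraries. The 6 markers of each other list summed in PEox against vehicle libraries to 37.3 to 43.7 against 255.2 to 273.8 CPM for B cells, 42.2 to 53.9 against 103.6 to 116.9 for T cells, 19.5 to 23.2 against 148.1 to 155.7 for mast cells and 80.4 to 106.5 against 157.8 to 166.5 for myeloid cells. Members of a list differed. Of the 6 T cell markers 5 were lower and Cd4 was higher, and of the 6 myeloid markers 2 were lower and 4 not called, with most of that gap in Lyz2 (51.0 CPM in PEox and 110.5 in vehicle). The part of these cells in the mitochondrial changes was not tested.

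By share of all counts, the protein genes took 1.10%, 1.04% and 0.989% in PEox libraries 1 to 3, against 1.46%, 1.46% and 1.32% in vehicle libraries 1 to 3. The rRNA genes took 0.251% ± 0.0308 in PEox and 0.336% ± 0.0286 in vehicle (SD, n = 3 each), and the tRNA genes 0.00577% ± 0.000477 in PEox and 0.00681% ± 0.000280 in vehicle (SD, n = 3 each). The PEox libraries were below the vehicle libraries in all 3 classes, each at an exact two-sided permutation p of 0.1, the smallest that 3 against 3 allow. With the nuclear copies added, all members together took 1.64% ± 0.102 of counts in PEox and 2.32% ± 0.119 in vehicle (SD, n = 3 each). The ratio of rRNA to mRNA counts was 0.240 ± 0.0206 in PEox and 0.237 ± 0.00974 in vehicle (SD, n = 3 each), with overlapping groups.

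**Figure D2:**
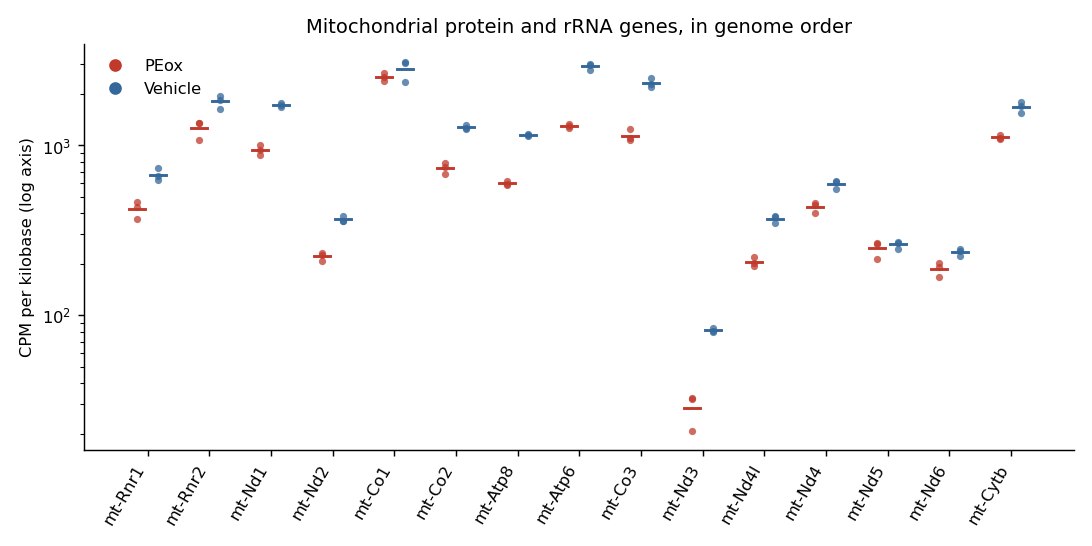
Level of the 2 rRNA and 13 protein genes in CPM per kilobase (log axis), in genome order, with 3 PEox and 3 vehicle libraries as points and group means as bars. PEox lies below vehicle for every gene except mt-Co1 and mt-Nd5, whose libraries overlap.

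Among the genes of ATP synthase (complex V), mt-Atp6, which encodes a subunit of the proton channel, had 912.1, 866.7 and 884.4 CPM in PEox libraries 1 to 3 and 1905, 2015 and 2056 CPM in vehicle libraries 1 to 3. The groups were far apart, and the log2 fold change was -1.17 ± 0.04 (SE; p adjusted in edgeR, 1.12e-06). Its partner mt-Atp8, a short accessory subunit gene with no annotated copy among the 11, had 125.8, 120.2 and 120.8 CPM in PEox and 230.8, 238.2 and 236.4 CPM in vehicle libraries. It fell by 0.94 on the log2 scale. The counts of mt-Atp6 were 7.26 ± 0.0570 times those of mt-Atp8 in PEox and 8.47 ± 0.220 times in vehicle (SD, n = 3 each; exact permutation p = 0.1, the smallest possible). The pair is made as a single mRNA, and the bases they share can be assigned to either.

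In cytochrome c oxidase (complex IV), which passes electrons to oxygen, the 3 mitochondrial genes differed from each other. The catalytic subunit gene mt-Co1 had 4149, 3923 and 3690 CPM in PEox libraries 1 to 3 and 4764, 4713 and 3658 CPM in vehicle libraries 1 to 3. Vehicle library 3 lay below all PEox libraries, and the log2 fold change of -0.16 ± 0.10 (SE) did not pass (edgeR adjusted p = 0.251). Without that library mt-Co1 was called lower, at -0.28 (edgeR adjusted p = 0.00694). The copper-binding subunit gene mt-Co2 averaged 503.9 ± 37.9 CPM in PEox and 876.1 ± 26.8 in vehicle (SD, n = 3 each), and fell by 0.80 on the log2 scale. The core subunit gene mt-Co3 averaged 897.5 ± 76.1 CPM in PEox and 1833 ± 121 in vehicle (SD, n = 3 each), and fell by 1.03. There were 4.38 ± 0.149 counts of mt-Co1 for each of mt-Co3 in PEox and 2.38 ± 0.251 in vehicle (SD, n = 3 each), with no overlap between the groups (exact permutation p = 0.1, the smallest possible).

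Cytochrome b of complex III, encoded by mt-Cytb, had 1317, 1261 and 1252 CPM in PEox and 2052, 1965 and 1788 CPM in vehicle libraries. The groups did not overlap, and it fell by 0.60 ± 0.05 on the log2 scale (SE; p adjusted in edgeR, 7.32e-05).

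Complex I takes electrons from NADH, and its 7 mitochondrial genes spanned the widest range. The gene mt-Nd3 had 11.3, 11.1 and 7.24 CPM in PEox and 27.9, 29.2 and 28.2 CPM in vehicle libraries, and dropped by 1.52 ± 0.18 on the log2 scale (SE; p adjusted in edgeR, 0.000321). That is 438 to 665 counts in a PEox library and 1655 to 1774 in a vehicle library. At 28.4 CPM per kilobase in PEox and 81.7 in vehicle it was also the protein gene with the lowest level per length in either group. By contrast mt-Nd5 had 485.3, 480.2 and 393.9 CPM in PEox and 489.0, 494.6 and 448.1 CPM in vehicle libraries. The groups overlapped and the log2 fold change of -0.07 ± 0.08 did not pass (SE; p adjusted in edgeR, 0.548). Under library size scaling mt-Nd5 lay at 0.06 and without PEox library 3 at 0.02, so its direction is not settled.

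Between these ends lay mt-Nd1, mt-Nd4l, mt-Nd2, mt-Nd4 and mt-Nd6. Falls on the log2 scale amounted to 0.87 for mt-Nd1, 0.85 for mt-Nd4l, 0.73 for mt-Nd2 and 0.46 for mt-Nd4, with edgeR adjusted p-values of 1.26e-05 to 0.00067. The gene mt-Nd6 is the single protein gene of the light strand. It had 105.3, 100.1 and 86.8 CPM in PEox and 116.3, 123.6 and 127.5 CPM in vehicle libraries, and fell by 0.33 ± 0.08 (SE; p adjusted in edgeR, 0.0133). That call was lost under library size scaling (-0.19, adjusted p = 0.0957), without vehicle library 2 (adjusted p = 0.0545) or vehicle library 3 (adjusted p = 0.0528), and in a fit that removes the trend on length and GC content (0.0060, adjusted p = 0.963). Ordered by level per length among the protein genes, in PEox mt-Co1 led (2537 CPM per kilobase), followed by mt-Atp6 (1304) and mt-Co3 (1145), whereas in vehicle mt-Atp6 (2925), mt-Co1 (2834) and mt-Co3 (2338) stood highest. In PEox the libraries of mt-Co3 and of the next gene, mt-Cytb (1116), overlap, and in vehicle the spread of mt-Co1 covers its gap to mt-Atp6. These levels leave out the counts of the nuclear copies. Because mt-Co1, mt-Atp6 and mt-Co3 each have a copy on chromosome 1, their order and these gaps are uncertain.

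**Figure D3:**
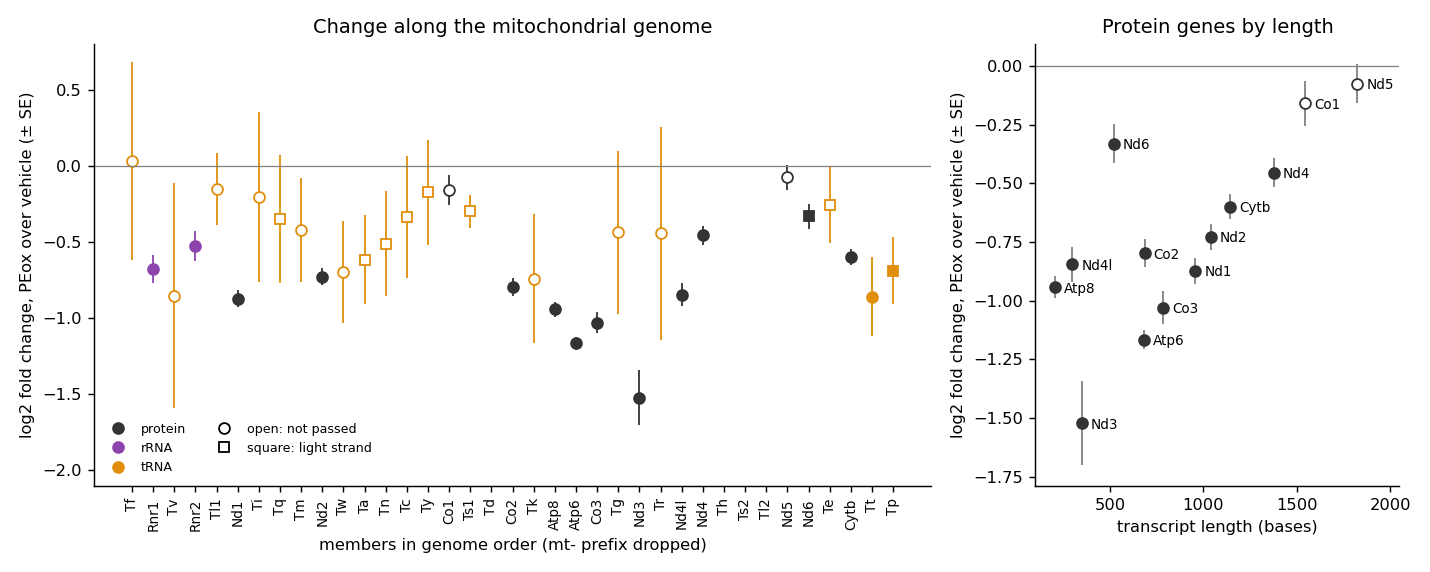
Left, log2 fold change of PEox over vehicle with its SE for the 33 tested members in genome order, with filled symbols called lower, open symbols not passed and squares on the light strand. Right, the same for the 13 protein genes against transcript length in bases; mt-Co1 and mt-Nd5, above 1500 bases, lie nearest to 0.

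The 2 longest mRNAs, mt-Nd5 and mt-Co1, had the log2 fold changes nearest to 0. All 8 protein genes shorter than 1000 bases fell, with log2 fold changes of -1.52 to -0.33, and of the 5 longer ones 3 fell, with a range of -0.73 to -0.07. Among the shorter genes, mt-Atp6, mt-Co2, mt-Co3, mt-Nd3 and mt-Nd4l have a chromosome 1 copy over nearly their whole length. None of the longer genes does. The median log2 fold change was -0.85 for the 7 protein genes with a chromosome 1 copy and -0.66 for the 6 without an annotated one. The part of the copies in the order by length was not tested. Across the 13 genes the log2 fold change rose with length (Spearman's rho 0.68, and 0.65 without mt-Nd3), against 0.21 for GC content, 0.30 for position along the genome and -0.19 for the vehicle level per length (without mt-Nd3, 0.021, 0.35 and -0.52). The 13 share the same 6 libraries, so these values are descriptions and carry no test. Among nuclear genes the median log2 fold change also rose with the length of the longest annotated transcript, above 100 bases. It was -0.55 for 934 genes of 100 to 500 bases, -0.44 for 1682 of 500 to 1000, -0.32 for 1689 of 1000 to 1500, -0.18 for 1785 of 1500 to 2000 and -0.05 for 3620 of 2000 to 3000. It was 0.22 for 5311 genes of 3000 to 5000 bases and 0.25 for 3109 longer ones. The 67 nuclear genes under 100 bases, at -0.20, did not follow that order. The slopes of mitochondrial and nuclear genes were not compared by a test. With the trend of each library on length and GC content removed, the median of the 13 was -0.42 and that of all tested genes 0.13, and 10 of the 13 were lower. In that fit mt-Atp6 lay at -0.84, mt-Nd3 at -1.17, mt-Co1 at 0.04 and mt-Nd5 at 0.06.

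Members did not move in proportion. As a share of the summed counts of the 13 protein genes, a measure that library scaling does not touch, mt-Co1 took 39.4%, 39.4% and 39.2% in PEox libraries 1 to 3, against 30.9%, 30.8% and 26.5% in vehicle libraries 1 to 3. The share of mt-Atp6 was 8.92% ± 0.417 in PEox and 13.5% ± 1.28 in vehicle (SD, n = 3 each), and that of mt-Nd5 was 4.61%, 4.82% and 4.19% in PEox libraries and 3.17%, 3.23% and 3.24% in vehicle libraries. Shares of mt-Co1, mt-Nd4, mt-Nd5 and mt-Nd6 were higher in every PEox library than in any vehicle library, and those of 7 genes were lower. For mt-Nd6 this was nearly a tie, with 0.9233% in PEox library 3 and 0.9224% in vehicle library 3. Groups overlapped for mt-Nd2 and mt-Cytb. Each of the 11 separations had an exact two-sided permutation p of 0.1, the smallest possible, or 0.118 after Benjamini-Hochberg adjustment over the 13 genes, so none passes. With mt-Co1 left out of the sum, 8 of the other 12 did not overlap, 4 with a higher and 4 with a lower share in PEox. Then mt-Nd1, mt-Co2 and mt-Nd4l overlapped, and mt-Cytb was higher, at 21.1% ± 0.671 in PEox and 18.5% ± 0.849 in vehicle (SD, n = 3 each). With nuclear copies added to their members, mt-Co1 took 34.7% ± 0.219 in PEox and 24.4% ± 2.22 in vehicle (SD, n = 3 each), and the same number of genes, 11, did not overlap.

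**Figure D4:**
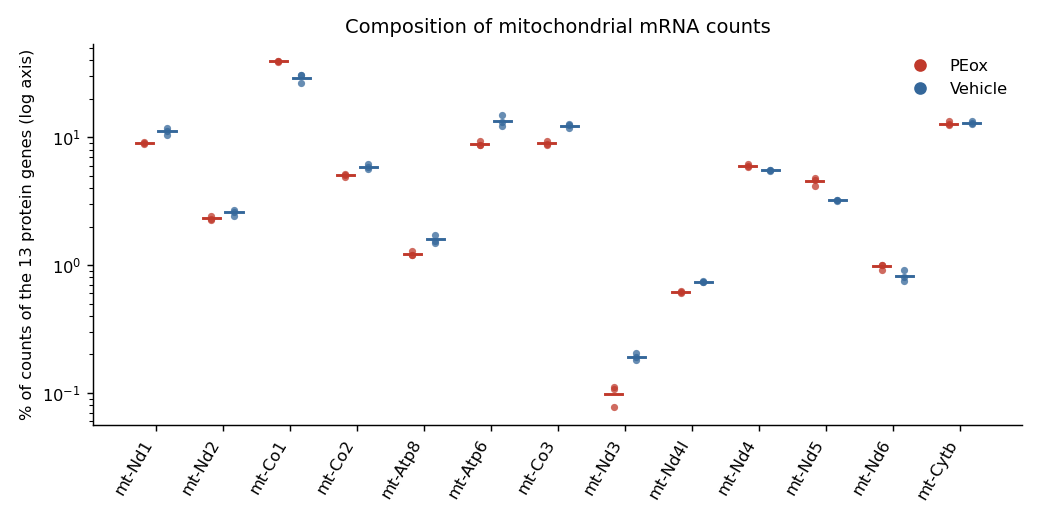
Percent of the summed counts of the 13 protein genes that each gene took (log axis), for 3 PEox and 3 vehicle libraries as points with group means as bars. The share of mt-Co1 was 39.3% in PEox and 29.4% in vehicle, and that of mt-Atp6 8.92% in PEox and 13.5% in vehicle.

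Of the rRNA genes, mt-Rnr2 encodes the RNA of the large ribosomal subunit and mt-Rnr1 that of the small one. The larger, mt-Rnr2, had 2155, 2133 and 1698 CPM in PEox and 2941, 3102 and 2600 CPM in vehicle libraries, and fell by 0.53 ± 0.10 on the log2 scale (SE; p adjusted in edgeR, 0.00347). The smaller, mt-Rnr1, had 412.9, 441.2 and 350.2 CPM in PEox and 630.9, 703.0 and 596.5 CPM in vehicle libraries, and fell by 0.68 ± 0.09 (SE; p adjusted in edgeR, 0.000653). PEox library 3 was the lowest of the 6 for both. There were 4.97 ± 0.218 counts of mt-Rnr2 per count of mt-Rnr1 in PEox and 4.48 ± 0.162 in vehicle (SD, n = 3 each; exact permutation p = 0.1). Both rRNA genes passed under all 15 alternatives. Whether the libraries were depleted of rRNA or selected for polyadenylated RNA was not given in the sources used here, and rRNA levels rest on that step.

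Counts at tRNA genes were low apart from 1. These genes are 59 to 75 bases long, shorter than the sequenced reads of 150 bp, so a read of full length cannot lie within one. The tRNA-serine gene mt-Ts1 held 53.8% to 61.0% of all tRNA counts in every library. At 473.2 CPM per kilobase in PEox and 582.4 in vehicle it stood above all other tRNA genes, of which mt-Tp was the highest (46.7 in PEox and 75.3 in vehicle). Its complement is the stretch printed above that follows mt-Co1 on the opposite strand, and it held 0.00832 ± 0.000399 counts per count of mt-Co1 in PEox and 0.00925 ± 0.000725 in vehicle (SD, n = 3 each). The log2 fold change of mt-Ts1 was -0.30 ± 0.11 (SE; p adjusted in edgeR, 0.059). It passed under 4 of 15 alternatives, DESeq2 (adjusted p = 0.0402) and limma-voom (0.0494) among them.

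The other 17 tested tRNA genes held 9 to 343 counts in a library. Those called lower were mt-Tt (tRNA-threonine) and mt-Tp (tRNA-proline), which follow mt-Cytb on opposite strands and are printed whole.
mt-Tt: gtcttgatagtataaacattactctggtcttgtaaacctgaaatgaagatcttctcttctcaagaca
mt-Tp: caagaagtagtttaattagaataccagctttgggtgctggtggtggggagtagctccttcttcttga
The gene mt-Tt had 95, 116 and 100 counts in PEox libraries 1 to 3 and 200, 181 and 198 in vehicle libraries 1 to 3, a log2 fold change of -0.86 ± 0.26 (SE; p adjusted in edgeR, 0.0306). The gene mt-Tp had 197, 195 and 166 counts in PEox and 284, 296 and 343 in vehicle libraries, a log2 fold change of -0.69 ± 0.22 (SE; p adjusted in edgeR, 0.0393). Groups did not overlap for either, yet mt-Tt passed in 6 of 14 alternatives and mt-Tp in 4 of 14. Leaving out a library took both calls away for PEox library 1 (adjusted p = 0.0665 for mt-Tt and 0.0541 for mt-Tp), PEox library 3 (0.0615 and 0.08), vehicle library 1 (0.0942 and 0.0649), vehicle library 2 (0.0975 and 0.117) and vehicle library 3 (0.0926 and 0.132). Leaving out PEox library 2 took away that of mt-Tp (0.0538). Library size scaling (0.0571 and 0.0831), the replicate block (0.072 and 0.0886) and removal of the length and GC trend (0.234 and 0.895) did so for both.

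The remaining 15 tested tRNA genes had log2 fold changes of -0.85 (mt-Tv) to 0.03 (mt-Tf) and did not pass. In all, 10 of the 18 tested tRNA genes had no overlap between the groups, with PEox lower, beside 26.5% of all tested genes. The 4 untested genes, mt-Td, mt-Th, mt-Ts2 and mt-Tl2, held 2 to 11 counts in a library and were removed by the low count filter. Of these, mt-Tl2 had 3, 4 and 2 counts in PEox libraries and 8, 9 and 6 in vehicle libraries, without overlap, and the groups overlapped for the other 3. By strand, the 8 light-strand tRNA genes had a median log2 fold change of -0.34, and the 10 tested heavy-strand ones -0.44.

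Nuclear-encoded subunits of the same complexes were lower too. Over all tested genes 18.8% were called lower. Among nuclear genes that share varied with transcript length. It was 23.6% at 100 to 500 bases, 29.7% at 500 to 1000, 30.3% at 1000 to 1500 and 9.23% from 5000 bases. The subunit genes were not compared with nuclear genes of like length. All 11 of complex IV, all 9 of complex III and all 17 of complex V fell in the edgeR test, as did 36 of 37 of complex I. The exception, Ndufs1, an iron-sulfur subunit gene of complex I named after its value was seen, rose by 0.56 on the log2 scale. Median log2 fold changes of nuclear and mitochondrial subunits stood side by side as follows. The 7 mitochondrial genes of complex I had -0.73 and the 37 nuclear genes -0.80. In complex III the values were -0.60 for mt-Cytb and -0.81 for the nuclear genes. In complex IV they were -0.80 for the 3 mitochondrial and -0.93 for the 11 nuclear genes, and in complex V -1.05 for the 2 mitochondrial and -0.89 for the 17 nuclear genes. The nuclear range in complex IV, -1.20 to -0.78, left out mt-Co1, at -0.16. No test of the difference between the genomes was run.

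**Figure D5:**
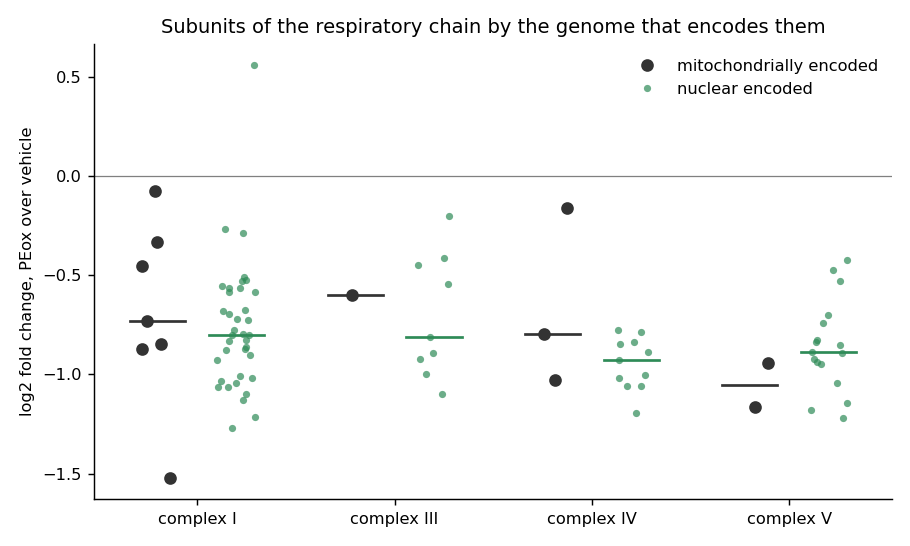
Log2 fold change of PEox over vehicle for mitochondrially encoded (left of each pair) and nuclear-encoded (right) subunits of complexes I, III, IV and V, each point a gene and each bar a median. Nuclear subunits of complex IV lie between -1.20 and -0.78, and mt-Co1 lies above them at -0.16.

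With the smallest p-values in their complexes, Ndufb9, Ndufb7, Ndufs6 and Ndufb5 of complex I dropped by 1.06, 1.04, 1.10 and 1.02 on the log2 scale. Uqcr10, Uqcr11, Uqcrh and Uqcrq of complex III dropped by 1.10, 0.996, 0.92 and 0.89. Cox4i1, which averaged 306.9 ± 19.4 CPM in PEox and 638.8 ± 22.2 in vehicle (SD, n = 3 each), Cox5b, Cox6a1 and Cox5a of complex IV dropped by 1.06, 1.02, 0.93 and 1.20. Atp5o, Atp5l, Atp5g3 and Atp5g1 of ATP synthase dropped by 1.14, 0.94, 0.83 and 0.89.

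Nuclear genes that transcribe and maintain the mitochondrial genome, or process, modify and translate its RNAs, were called in both directions. Over all tested genes 18.8% were lower and 18.3% higher, and many of the counts that follow lie near those shares, so they set no list apart. Of 10 transcription genes 3 rose, 1 fell and 6 did not pass, with a median log2 fold change of 0.07. Polrmt, the mitochondrial RNA polymerase gene, averaged 68.0 ± 11.8 CPM in PEox and 35.5 ± 1.12 in vehicle (SD, n = 3 each), and rose by 0.94 ± 0.12 on the log2 scale (SE; p adjusted in edgeR, 0.000595). Mterf3 and Mterf1a, genes of the mitochondrial termination factor family, rose by 0.51 and 0.58. Mrpl12, a mitochondrial ribosomal protein gene whose product also binds the polymerase, dropped by 1.13. Tfam, whose product packages the genome and starts transcription, lay at 53.1 ± 6.11 CPM in PEox and 48.4 ± 1.31 in vehicle (SD, n = 3 each) and did not pass (log2 fold change 0.13 ± 0.10, SE; edgeR adjusted p = 0.345). Tfam was named after its value was seen, for its role.

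Of 17 maintenance genes 4 rose, 3 fell and 10 did not pass (median log2 fold change 0.26). Polg, the catalytic subunit of the mitochondrial DNA polymerase, averaged 77.0 ± 4.49 CPM in PEox and 37.5 ± 2.79 in vehicle (SD, n = 3 each), and rose by 1.04 ± 0.09 on the log2 scale (SE; p adjusted in edgeR, 5.15e-05). The topoisomerase gene Top3a rose by 0.92. The nuclease and helicase gene Dna2 dropped by 1.72 and the mitochondrial topoisomerase gene Top1mt by 0.60. Under library size scaling 7 maintenance genes were higher, and without vehicle library 1, 2 or 3 in turn 2 were. Once the length and GC trend was removed 1 was lower.

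Among 21 RNA processing and stability genes 5 were lower, 4 higher and 12 not called (median log2 fold change 0.09). The genes Lrpprc and Slirp encode the partners of a complex that binds and stabilises mitochondrial mRNAs. Slirp averaged 19.5 ± 1.38 CPM in PEox and 38.2 ± 0.693 in vehicle (SD, n = 3 each), and fell by 0.97 ± 0.10 on the log2 scale (SE; p adjusted in edgeR, 0.000129). Lrpprc averaged 44.9 ± 0.794 CPM in PEox and 27.7 ± 0.902 in vehicle (SD, n = 3 each), and rose by 0.70 ± 0.08 (SE; p adjusted in edgeR, 0.000308). Rexo2, an oligonuclease gene, dropped by 0.69, and Ptcd1 rose by 0.87. Under library size scaling 7 of these genes were higher, and once the length and GC trend was removed 3 were lower.

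Genes that serve the mitochondrial tRNAs and translation were likewise called in both directions. Of 18 tRNA and rRNA modification genes 3 fell and 2 rose. Pus1, a pseudouridine synthase gene, and Trmt5, a methyltransferase gene, dropped by 0.66 and 0.50, and Trnt1, which adds the CCA end to tRNAs, and Nsun3 rose by 0.42 and 0.48. Of 20 mitochondrial aminoacyl-tRNA synthetase and amidotransferase genes 3 fell and 2 rose. Ears2 (glutamate) dropped by 1.26 and Lars2 (leucine) by 0.36, while Aars2 (alanine) and Iars2 (isoleucine) rose by 0.91 and 0.63. Of 12 translation factor genes 3 fell and 1 rose. The elongation factor genes Tufm and Tsfm dropped by 0.34 and 0.35 and the membrane insertase gene Oxa1l by 0.41, whereas Gfm2, a ribosome recycling factor gene, rose by 0.79. Under library size scaling 1 gene was lower in each of the 3 lists, and once the length and GC trend was removed 0 modification and 0 translation factor genes were. Without vehicle library 1 or 3, 1 modification gene was lower, and without vehicle library 2 or 3, 1 was higher. The count of lower synthetase genes was 1 without PEox library 1 and 0 without vehicle library 2, and that of lower translation factor genes 1 without vehicle library 3.

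For the next 3 lists too, the shares over all tested genes were 18.3% higher and 18.8% lower. Among 11 nuclear regulators 2 rose, 1 fell and 8 did not pass, which is near those shares. Gabpa and Nrf1, transcription factor genes known for activating nuclear genes of the respiratory chain, rose by 0.97 and 0.40, and Myc dropped by 0.87. Nrf1 passed narrowly (edgeR adjusted p = 0.0452), and the count of higher regulators was 1 in 8 of 15 alternatives, among them those without PEox library 2 or 3 or without vehicle library 1, 2 or 3. Gabpb1, the next by p-value, lay at 0.23 (edgeR adjusted p = 0.21). Of 15 general mitochondrial protein genes 9 fell, 2 rose and 4 did not pass (median log2 fold change -0.45). The adenine nucleotide carrier genes Slc25a5 and Slc25a4 dropped by 0.71 and 0.57, and the prohibitin genes Phb and Phb2 by 0.63 and 0.57. Tomm70a and Cs, the citrate synthase gene, rose by 0.30 each, and were named after their values were seen. The count of higher genes in that list was 1 without PEox library 1 or 2 or without vehicle library 2 or 3. Among 10 genes of mitochondrial dynamics and mitophagy 6 were higher (median log2 fold change 0.40). The number lower was 0 in edgeR, DESeq2 and limma-voom, and 0 at an unadjusted p under 0.05. Sqstm1, an autophagy receptor gene, averaged 2348 ± 14.9 CPM in PEox and 1232 ± 19.4 in vehicle (SD, n = 3 each). It rose by 0.93 on the log2 scale, Opa1, a fusion gene of the inner membrane, by 0.79, Pink1, a kinase gene of mitophagy, by 0.47 and Bnip3l, a mitophagy receptor gene, by 0.33.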

How the data were processed

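RNA of 6 libraries of ILC3s, 3 treated with PEox and 3 with vehicle, was analysed from 1 table of raw counts per gene that the authors deposited. Per the labels' protocols, paired reads of 150 bp were cleaned with fastp and aligned with HISAT2 2.0.5. An edgeR version, 3.22.5, is listed in the submitters' processing notes. Not given in the sources used here were the counter, its handling of reads that match several places, the genome build, the annotation and the strand setting. Symbols came from a table of gene names that held 55141 of 55401 identifiers. All columns matched sample titles.

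Genes were kept by filterByExpr (18253), scaled by TMM (factors 0.951 to 1.05) and compared with the robust quasi-likelihood test of edgeR 4.0.16 in R 4.3.3, with group as the single term and Benjamini-Hochberg adjustment over all genes. SE is the log2 fold change over the root of F. CPM values are mean ± SD. Shares of counts and ratios were compared by exact two-sided permutation in scipy 1.17.1. By total counts alone, without TMM factors, 3 counts stand for 0.0449 to 0.0533 CPM. That value concerns counting error only and not the spread between libraries. No library repeated another of its group within sampling noise (chi-square per gene 15.6 to 35.4), and each was counted as 1 replicate. The chi-square cannot tell libraries of separate animals from separate preparations of 1 pool of cells.

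Lengths, strands, overlaps and sequences came from GENCODE vM21 transcripts (GRCm38), which may differ from the authors' annotation, so no coordinates are given. The length and GC content of a gene are those of its longest annotated transcript, which need not be the one expressed. Nuclear copies were found with blastn 2.17.0. Of 2 identifiers named Atp5o the one with more counts was used. The members, lists and tests were chosen with earlier results of these data known. A further ILC3 marker is not reported here. Named nuclear genes are the 4 members of each list with the smallest p-values, unless said otherwise.

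Alternatives were RLE scaling, library size scaling, DESeq2 1.42.0, all genes without a low count filter, genes that reach 5 CPM in 3 libraries, a block for the replicate number, limma-voom (limma 3.58.1), omission of single libraries, removal of the length and GC trend (loess, span 0.5) and adding the nuclear copies. The test was tried on simulated data for PEox against vehicle (17470 genes): it recovered 66% of 100 genes with a log2 change of 1 and 85% of 100 with a change of 2, and called 9 unchanged genes. Removal of an imposed length trend took the calls from 3845 to 0 there. That trend was linear in log2 length, a form the fit is built to remove, and the simulated data held no true changes. The trial therefore cannot show whether true changes are kept.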

Additional observations from a re-analysis of the deposited data

How the results depend on the processing

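The count of lower mitochondrial protein genes stayed at 10 or 11 and that of rRNA genes at 2 under all 15 alternatives, and no tRNA gene was called higher in any of them (edgeR, DESeq2 or limma-voom). The count of lower tRNA genes, 2 as reported, was 0 with library size scaling or after removal of the length and GC trend, 1 with no low count filter, with at least 5 CPM in 3 libraries or with the replicate block, and 0 to 1 when a library was left out. The gene called was mt-Tt with no low count filter, and mt-Ts1, not among the 2 reported, at 5 CPM (adjusted p = 0.0312), where mt-Tt and mt-Tp were not tested, and with the block (0.0472), where neither passed. With DESeq2 and limma-voom the count was 3, with mt-Ts1 added. The median log2 fold change of the protein genes was -0.66 with library size scaling, which moved all genes by 0.14 (61.9% of calls higher, against 49.3%), and -0.42 after that trend was removed, which moved them by 0.13 (60.1% higher); the cause was not tested. Members that had not passed turned sign in that fit: mt-Tl1 to 0.49, mt-Ti to 0.051, mt-Tq to 0.13, mt-Tm to 0.24, mt-Tc to 0.13, mt-Ty to 0.25, mt-Te to 0.17, mt-Ts1 to 0.20, mt-Co1 to 0.042 and mt-Nd5 to 0.059, as did mt-Nd6, to 0.0060. With library size scaling mt-Nd5 turned to 0.061. Leaving out libraries gave -0.17 to 0.18 for mt-Tf, -0.53 to 0.050 for mt-Ti and -0.13 to 0.018 for mt-Nd5. Few tested nuclear genes, 67, are shorter than 100 bases, and their median log2 fold change of -0.20 departs from the order by length, so the trend is thinly supported at the length of tRNAs. Same-numbered libraries did not deviate together (correlations -0.0058 to 0.0135), so the numbers were not taken as pairs; with the replicate block 6159 genes were called, against 6775, and 11 protein genes were lower. Of the 208 genes of the nuclear lists 101 were lower, and 78 to 104 in the alternatives. Adding nuclear copies to shares, composition and counts of calls was chosen after seeing the data.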
